A study of Mus musculus with 6 samples.

Results

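The genes described here are the mouse zinc finger genes whose symbol is Zfp followed by a digit and which stand in the authors' deposited table of genes that differed between ischemic and sham-operated hippocampus. They number 37 of the 637 genes in that table, and all 637 are genes the authors called at an adjusted p-value under 0.05. The members were therefore chosen by the same contrast that is described below, and their counts, directions and sizes are a description that no test can add to. The study took hippocampi of wild-type C57BL/6 mice aged 56 days, 3 samples after occlusion of the middle cerebral artery (MCAO, a model of focal stroke) and 3 after a sham operation, both labelled 2 h. What the 2 h counts, occlusion or the time since surgery, is left unstated. Separate animals are not stated for the samples of a group either, and the p-values of the authors then measure only how far these samples spread, which may be technical. The headings of the deposited columns of means, M2 and S2, were read as MCAO and sham at 2 h from their initials, and every direction below rests on that reading.

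Zinc finger proteins fold short loops around a zinc ion. In the C2H2 type, 2 cysteines and 2 histidines hold the zinc, and arrays of such fingers usually bind DNA. Many mouse C2H2 genes also encode a KRAB domain, which recruits the co-repressor Trim28 and, through it, enzymes that lay down heterochromatin, and many of these genes silence transposable elements. The CCCH type, with 3 cysteines and 1 histidine, includes Zfp36 (tristetraprolin) and Zfp36l1, which bind AU-rich elements in the 3′ untranslated regions of messenger RNAs and bring in the deadenylation machinery, so that the bound RNA is degraded. Zfp36 is known as an immediate-early gene. In whole tissue, fewer cells of a type and less RNA per cell cannot be told apart.

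Of the 37 genes in the authors' deposited table, 32 were lower in ischemia and 5 were higher. The authors' p-values imply that 28319 genes were tested, of which 2.25% were called in either direction, 0.784% as lower and 1.47% as higher. Since calling chose the members, nothing is read from these shares. The direction was the other way round in the table as a whole, where 222 genes were lower and 415 higher, so that 86.5% of the Zfp genes and 31.7% of the 600 other genes of the authors' deposited table were lower. Zfp genes made up 14.4% of the lower genes and 1.2% of the higher genes of the authors' deposited table. RefSeq holds 397 protein-coding mouse genes with such a name, so 9.32% of them were in the authors' deposited table.

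The falls were moderate. The median log2 fold change of the 32 lower members in the authors' deposited table was -0.74, a 1.67-fold lower level, with a range from 1.41-fold for Zfp60 to 2.24-fold for Zfp493. All 222 lower genes of the authors' deposited table had a median of -0.68, or 1.60-fold. A fall of 2-fold or more was found in 8 of the 32 lower members (25%) and in 48 of the 222 lower genes (21.6%) of the authors' deposited table. The 5 higher members had a median log2 fold change of 1.2 in the authors' deposited table.

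**Figure D1:**
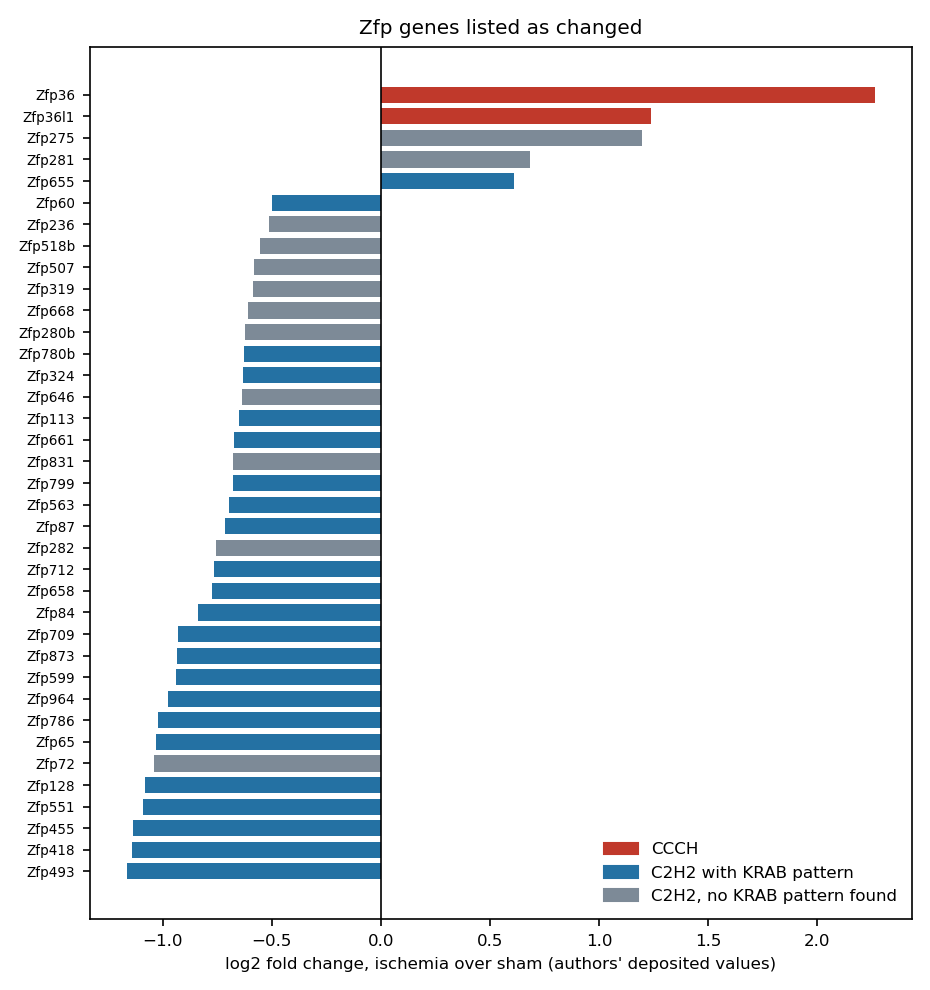
Log2 fold change of ischemia over sham for each of the 37 Zfp genes, from the authors' deposited table, as bars coloured by finger class. The 32 bars to the left of 0 reach -1.16 for Zfp493, and the 5 bars to the right reach 2.26 for Zfp36.

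The largest change belonged to a CCCH gene and was a rise. Zfp36 had a mean of 174 normalised reads in sham and 835 in ischemia, 4.80-fold higher, with an adjusted p of 1.38e-15 in the authors' deposited table. When the group means were separated into whole reads per library, the 3 sham libraries, lettered A to C by depth, held 152, 136 and 235 normalised reads of Zfp36 (mean 174 ± 53.3 SD, n = 3). Sham library C was the highest of the 3, and each was far under the ischemia mean. The ischemia mean of Zfp36 could be split in 5 ways, so no value per library is given for it.

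Zfp36l1, the other CCCH member, had far fewer reads, and its exons overlap Gm26669 on the opposite strand by 1490 bases. The part of that overlap in the level of Zfp36l1 was not tested. Its mean rose from 41.8 to 98.5 normalised reads, 2.35-fold, with an adjusted p of 0.0433 in the authors' deposited table. Its sham libraries held 20.6, 41.6 and 63.3 normalised reads (SD 21.4, n = 3) and its ischemia libraries 96.8, 95.7 and 103 (SD 3.90, n = 3). The groups of Zfp36l1 did not overlap, and the spread lay in sham, where the library values rested on 18, 46 and 76 reads. Leaving out 1 library at a time gave log2 fold changes of Zfp36l1 from 0.91 to 1.66.

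The messenger RNAs of both CCCH genes carry the element their proteins bind. A stretch from each 3′ untranslated region (GENCODE M21 transcript with the longest coding sequence) is shown because it holds the nonamer TTATTTATT, the core AU-rich element, written as DNA with the nonamer in capitals.
Zfp36: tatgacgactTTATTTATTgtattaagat
Zfp36l1: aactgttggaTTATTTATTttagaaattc
The nonamer was present in 6.51% of 21877 protein-coding genes searched in the same way and in 6 of the 32 lower Zfp members (18.8%), whose 3′ untranslated regions were longer, with a median of 2268 bases against 727. Among the other genes of the authors' deposited table it was present in 7.65% of those lower and 13.8% of those higher. A match describes letters and does not show binding.

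The promoter of Zfp36 is shown because it was the only one of the 31 members matched to a RefSeq promoter that held a CArG box, the element bound by serum response factor. The window below is chr7:28379229-28379346 on the minus strand of GRCm38.p6 (RefSeq), read 5′ to 3′, with the box in capitals. The box begins 58 bases before the annotated start.
Zfp36: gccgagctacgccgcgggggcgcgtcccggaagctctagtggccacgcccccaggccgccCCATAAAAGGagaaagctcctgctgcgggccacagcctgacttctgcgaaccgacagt
A CArG box stood in the 250 bases before the start in 1.62% of 27025 genes, in 7 of 272 other higher genes of the authors' deposited table (2.57%) and in 1 of 125 other lower genes (0.8%).

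Lists of partners and of known targets of the CCCH proteins were counted. Of 47 genes for CCCH partners, deadenylation and messenger RNA decay, 3 (6.38%, against 2.25% of all genes tested) were in the authors' deposited table, all higher: the members Zfp36 and Zfp36l1 themselves and Btg2, an activator of deadenylation and a known immediate-early gene. The authors' deposited table gives Btg2 as 9.09-fold higher, with an adjusted p of 0.0165. Both CCCH members are in the list's count by the rule that chose them. Btg2 was the only other gene counted, so nothing is read from the share of 6.38%. Of 46 AU-rich messenger RNAs known as targets of these proteins, 27 were higher and 1 was lower in the authors' deposited table (60.9% of the list). The 6 targets with the smallest p in the authors' deposited table were Nr4a1 (8.01-fold higher), Dusp1 (5.27-fold), Socs3 (6.77-fold), Atf3 (62.6-fold), Fos (37.4-fold) and Junb (8.42-fold). The lower one was the interleukin 1 receptor gene Il1r1, 1.72-fold lower in the authors' deposited table. This list was drawn up with earlier results of these data known and shares many genes with the immediate-early response, and it holds both CCCH members themselves, so its direction is not independent evidence.

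The remaining 3 higher members are C2H2 genes. Zfp275 more than doubled, from 1020 to 2339 normalised reads, 2.29-fold, with an adjusted p of 0.0361 in the authors' deposited table. Zfp281, a transcription factor of GC-rich promoters known from pluripotent stem cells, rose from 2886 to 4640 normalised reads, 1.61-fold, with an adjusted p of 0.00715 in the authors' deposited table. Zfp655 rose from 1441 to 2199 normalised reads, 1.53-fold, with an adjusted p of 0.00447 in the authors' deposited table. These 3 were among the abundant members. By the mean of both groups the most abundant in the authors' deposited table were Zfp281 (3763 normalised reads), the lower member Zfp236 (2268) and Zfp655 (1820). Their means were too high to be separated into libraries.

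Finger classes were assigned from translated GENCODE M21 coding sequences. The KRAB pattern is a short stretch of protein letters, so a gene without it may still encode the domain. Of the 32 lower members, 22 had C2H2 motifs and a KRAB pattern, with 7 to 21 C2H2 motifs, and 10 had C2H2 motifs (2 to 30) and no KRAB pattern. The 22 with the pattern had a median fold of 1.85 lower and included 7 of the 8 falls of 2-fold or more in the authors' deposited table. The 10 without it had a median fold of 1.53 lower and 1 such fall, in Zfp72. The 2 classes also differed in level, with medians of 303 and 948 for the sham means that the authors' deposited table gives in normalised reads, and folds by level are given below. The 5 higher members were 2 CCCH genes, 2 C2H2 genes without the pattern (Zfp275 and Zfp281) and 1 with it (Zfp655).

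**Figure D2:**
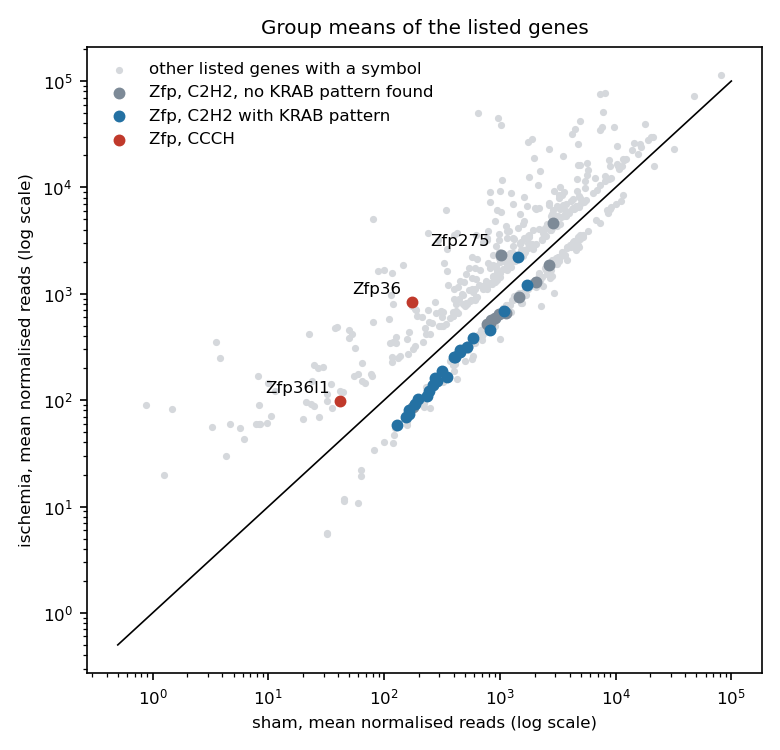
Mean normalised reads in sham (horizontal, log scale) and ischemia (vertical, log scale) for the genes of the authors' deposited table with a symbol and a sham mean above 0. Zfp genes are coloured by class and the line marks equal means, with the KRAB members below it from 130 normalised reads upward in sham and Zfp655 above it.

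The lower KRAB members were scarce transcripts. Divided by transcript length, the 22 had a median of 79.8 normalised reads per kilobase in sham and 41.5 in ischemia, from the means of the authors' deposited table. The 10 lower members without the pattern had medians of 161 and 105 per kilobase. Zfp281 was at 585 in sham and 940 in ischemia on this scale, Zfp36 at 62.4 and 299, and Zfp36l1 at 14.0 and 32.9. In ischemia Zfp36 thus stood above the median of the lower C2H2 members, having been under both medians in sham.

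The 8 lower members with the largest fold in the authors' deposited table were all at or under 350 normalised reads in sham. Zfp493 fell from 165 to 73.8 normalised reads (2.24-fold, adjusted p 0.00597, authors' deposited table). Its sham libraries held 176, 135 and 185 and its ischemia libraries 47.8, 88.8 and 84.7 normalised reads. Each ischemia library was under each sham library, and ischemia library A was the lowest.

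Zfp418 fell from 153 to 69.5 normalised reads (2.21-fold, adjusted p 0.0158, authors' deposited table). Its sham libraries held 175, 123 and 162 and its ischemia libraries 70.5, 43.3 and 94.6. Ischemia library B was the lowest for Zfp418, and the groups were apart. Zfp455 fell from 130 to 58.9 normalised reads (2.20-fold, adjusted p 0.0284, authors' deposited table). Its sham libraries held 137, 114 and 137 and its ischemia libraries 46.6, 54.7 and 75.5, again without overlap.

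Zfp551 fell from 235 to 110 normalised reads (2.13-fold, adjusted p 0.00198, authors' deposited table). Its sham libraries held 226, 268 and 210 and its ischemia libraries 124, 72.9 and 134, with ischemia library B again the lowest. Zfp128, whose protein is known to repress signalling by bone morphogenetic proteins, had the smallest p of the lower members. It fell from 350 to 165 normalised reads (2.11-fold, adjusted p 9.26e-05, authors' deposited table). Its sham libraries held 299.7, 376 and 373 and its ischemia libraries 141, 180 and 175, so the lowest sham library was well above the highest ischemia library.

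Zfp72, the only one of the 8 without a KRAB pattern, fell from 177 to 86.3 normalised reads (2.05-fold, adjusted p 0.0110, authors' deposited table). Its sham libraries, at 167, 181 and 184, were close together, and its ischemia libraries held 63.4, 106 and 89.6. Zfp65 fell from 165 to 80.7 normalised reads (2.04-fold, adjusted p 0.0178, authors' deposited table). Sham libraries of Zfp65 held 142, 149 and 203 and ischemia libraries 70.5, 75.2 and 96.3, and in both groups library C was the highest. Zfp786 fell from 186 to 91.5 normalised reads (2.03-fold, adjusted p 0.0119, authors' deposited table). The ischemia libraries of Zfp786 were nearly equal, at 92.0, 91.1 and 91.3, against 202, 190 and 165 in sham.

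**Figure D3:**
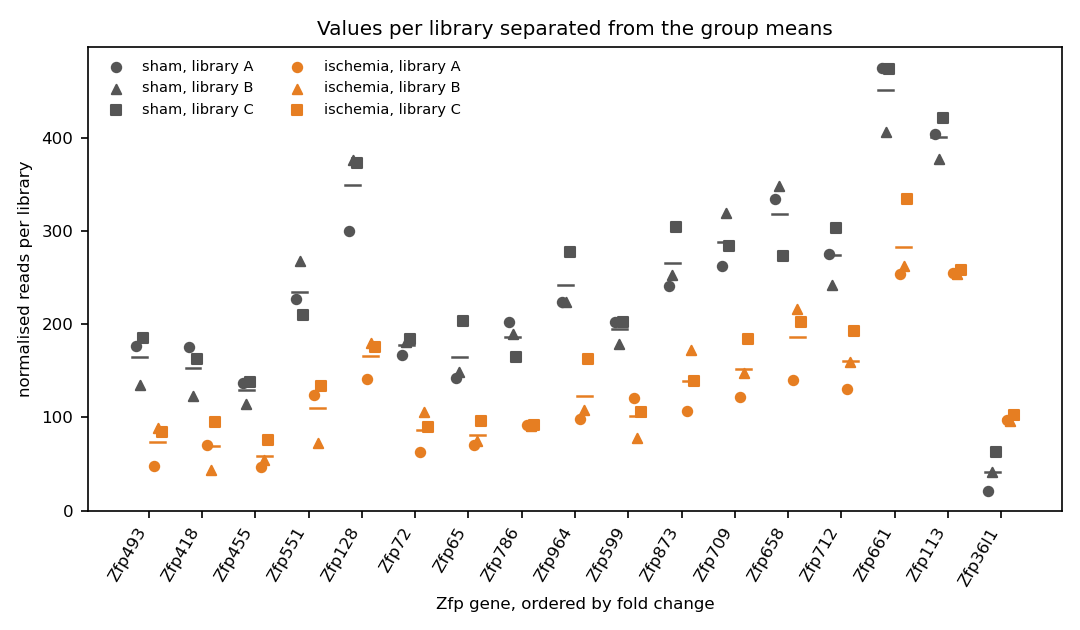
Normalised reads in each library for the 17 Zfp genes whose means could be separated in both groups, with sham in grey, ischemia in orange, libraries A to C as different symbols and short lines at the means. In each of the 17 genes the 3 ischemia points lie apart from the 3 sham points, below them in 16 genes and above them in Zfp36l1.

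Values per library were obtained in both groups for 17 members, 16 of them lower, and in all 17 the groups did not overlap. The same was found for 100% of the 125 genes of the table that could be separated in both groups, so the absence of overlap says nothing particular about the Zfp genes. Across the 16 lower members the lowest sham library was 1.22 to 1.79 times the highest ischemia library, with a median of 1.47. The ischemia libraries of these 16 ranged from 43.3 to 335 normalised reads and the sham libraries from 114 to 475, on 38 to 569 reads per value. The median SD of log2 values within a group was 0.33 in ischemia and 0.17 in sham over the 16.

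The ischemia libraries did not rank in the same way for the Zfp genes and for the other lower genes. Library A was the lowest of the 3 in 12 of the 18 lower Zfp members that could be separated in ischemia (66.7%) and in 20 of 56 other lower genes (35.7%). Library B was the lowest in 5 of the 18 (27.8%) and in 35 of the 56 (62.5%). Library C was the highest in 10 of the 18 and in 34 of the 56. The size factors of these libraries, which scale with depth, were 0.837 for A, 0.878 for B and 1.2 for C, and their part in the ranking was not tested.

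The other lower members with a KRAB pattern fell by less than 2-fold. In the authors' deposited table the folds were 1.97 for Zfp964, 1.92 for Zfp599, 1.91 for Zfp873, 1.91 for Zfp709, 1.79 for Zfp84, 1.71 for Zfp658, 1.70 for Zfp712, 1.64 for Zfp87, 1.62 for Zfp563, 1.60 for Zfp799, 1.59 for Zfp661, 1.57 for Zfp113, 1.55 for Zfp324, 1.54 for Zfp780b and 1.41 for Zfp60. Zfp84 was the most firmly called of them, with 816 normalised reads in sham, 456 in ischemia and an adjusted p of 0.000132 in the authors' deposited table. Zfp113 had even libraries, with 255, 254 and 258 normalised reads in ischemia and 404, 378 and 421 in sham.

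Lower members without the pattern were mostly abundant and fell by smaller folds. Beside Zfp72, the folds in the authors' deposited table were 1.69 for Zfp282, 1.60 for Zfp831, 1.56 for Zfp646, 1.54 for Zfp280b, 1.53 for Zfp668, 1.5 for Zfp319, 1.5 for Zfp507, 1.47 for Zfp518b and 1.43 for Zfp236. Zfp282 fell from 1123 to 664 normalised reads with an adjusted p of 0.000383 in the authors' deposited table. Zfp236, which had the most C2H2 motifs (30), fell from 2669 to 1867 normalised reads with an adjusted p of 0.0232 in the authors' deposited table.

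At the edge of the table, the 3 members with the largest adjusted p were all lower KRAB genes. Zfp712 fell from 274 to 161 normalised reads, with an adjusted p of 0.0496 in the authors' deposited table. Its libraries held 276, 242 and 303 normalised reads in sham and 130, 159 and 193 in ischemia, still without overlap. Zfp780b fell from 452 to 293 normalised reads (adjusted p 0.0495) and Zfp60 from 1720 to 1216 (adjusted p 0.0489), both in the authors' deposited table. Genes just outside the threshold were not analysed here.

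The median fall was larger at lower levels in the Zfp genes and in the other lower genes. Under 150 normalised reads in sham, the single Zfp member, Zfp455, was 2.20-fold lower and 16 other lower genes had a median fold of 2.99 in the authors' deposited table. At 150 to 300 normalised reads in sham, 11 lower Zfp members had a median fold of 2.03 and 16 other lower genes one of 2.14 in the authors' deposited table. The medians were 1.61 (8 genes) and 1.73 (30 genes) at 300 to 600 normalised reads, and 1.53 (8 genes) and 1.56 (36 genes) at 600 to 1200, in the authors' deposited table. From 1200 normalised reads upward both were 1.49, over 4 Zfp members and 92 other genes of the authors' deposited table. A scarce gene needs a larger fold to be called, and the table holds called genes alone.

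Zinc finger genes outside the Zfp naming were not chosen by the rule. Of 300 GENCODE genes with 3 or more C2H2 motifs and a KRAB pattern, 26 (8.67%) were lower and 1 was higher in the authors' deposited table. The higher gene and 22 of the lower ones are the Zfp members that the rule chose. Among the 300 genes 79 have other names, and 4 of these were in the authors' deposited table (5.06%, against 2.25% of all genes tested). All 4 were lower: A430033K04Rik (1.76-fold), 2810021J22Rik (1.61-fold), Gm12258 (1.59-fold) and 2610008E11Rik (1.42-fold). C2H2 genes without the pattern were divided. Of 207 with other names, 15 (7.25%) were in the authors' deposited table, 6 lower (2.9% of the 207) and 9 higher. The higher ones included the immediate-early transcription factors Egr1, Egr2 and Egr4 and the Krüppel-like factors Klf4, Klf6 and Klf11. Among 21227 genes outside these finger classes, 161 (0.758%) were lower and 331 were higher in the authors' deposited table.

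A wider list of 278 zinc finger genes with other names, of any finger type, had 9 higher and 14 lower members in the authors' deposited table. Together they were 8.27% of the list, against 2.25% of all genes tested. This list was also drawn up with earlier results of these data known, so nothing is read from that share. The 6 with the smallest p in the authors' deposited table were Egr2 (18.1-fold higher), Egr1 (6.51-fold higher), Klf4 (3.02-fold higher), Klf6 (2.47-fold higher), Egr4 (15.1-fold higher) and Zbtb40 (1.90-fold lower). Of 38 genes for KRAB co-repressors and heterochromatin, the machinery that KRAB proteins recruit, 1 was in the authors' deposited table (2.63%, close to the 2.25% of all genes tested). It was Atf7ip, a cofactor of the histone methyltransferase Setdb1, which was 1.39-fold lower with an adjusted p of 0.0355 in the authors' deposited table.

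Some of the Zfp members lie near each other. In the RefSeq gene order, 17 of the 37 lay in 6 groups in which no more than 25 protein-coding genes separated a member from the next. That distance was chosen after the data were seen. The same count was not made for Zfp genes that were not called, so closeness is not read as a trait of the members. The largest group, Zfp712, Zfp455, Zfp87, Zfp65 and Zfp493, spans 24 protein-coding genes, of which 22 are Zfp genes and 17 were not called, and its 5 members fell by 1.64-fold to 2.24-fold in the authors' deposited table. Zfp551, Zfp128 and Zfp324 formed a group of 3 lower members. Pairs of lower members were Zfp799 with Zfp563, Zfp786 with Zfp282, and Zfp668 with Zfp646, which are next to each other. In 1 group the directions differed, with Zfp60 and Zfp780b lower and Zfp36 higher, 14 protein-coding genes beyond Zfp780b.

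A part of the lower members held in their promoters the core of the site bound by ZNF143, a factor of many housekeeping promoters. The core searched reads ACTACA, then any 3 bases, then CCC. Both strands of the 250 bases before the start were searched, for 9 motifs in all, and this one was added after a member's promoter had been read, so its share is a description. It was found in 10 of the 26 lower members with a RefSeq promoter (38.5%) and in 0 of the 5 higher members. It was found in 51 of 305 Zfp genes outside the authors' deposited table (16.7%), in 8 of 125 other lower genes (6.40%), in 8 of 272 other higher genes (2.94%) and in 2.21% of all 27025 genes. The 10 were Zfp418, Zfp455, Zfp128, Zfp72, Zfp65, Zfp84, Zfp712, Zfp661, Zfp780b and Zfp60, of which 9 have the KRAB pattern. The promoters of Zfp236, Zfp831, Zfp493, Zfp87, Zfp599 and Zfp646 were not matched.

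The windows of the 3 with the largest fold are shown because they carry this shared element. They are chr7:7171234-7171285 on the plus strand for Zfp418, chr13:67194430-67194481 on the plus strand for Zfp455 and chr7:12881142-12881177 on the plus strand for Zfp128, all GRCm38.p6 (RefSeq), read 5′ to 3′. Capitals mark the 12-base match, which lies as written in Zfp418 and as its reverse complement in Zfp455 and Zfp128.
Zfp418: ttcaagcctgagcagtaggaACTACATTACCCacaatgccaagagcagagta
Zfp455: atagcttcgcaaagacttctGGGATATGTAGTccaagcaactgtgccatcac
Zfp128: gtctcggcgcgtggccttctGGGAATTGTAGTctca
All 10 matches began 16 to 99 bases before the annotated start, with a median of 56, and 7 of the 10 were in the reverse orientation. Members with the core had a median fold of 1.91 lower and the 16 matched lower members without it one of 1.61 lower in the authors' deposited table. The core was in 9 of the 19 matched lower members with the KRAB pattern and in 1 of the 7 without it. The parts of finger class and sham level in the 2 medians were not tested. Zfp60, with the core, had the smallest fold of the lower members, 1.41.

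**Figure D4:**
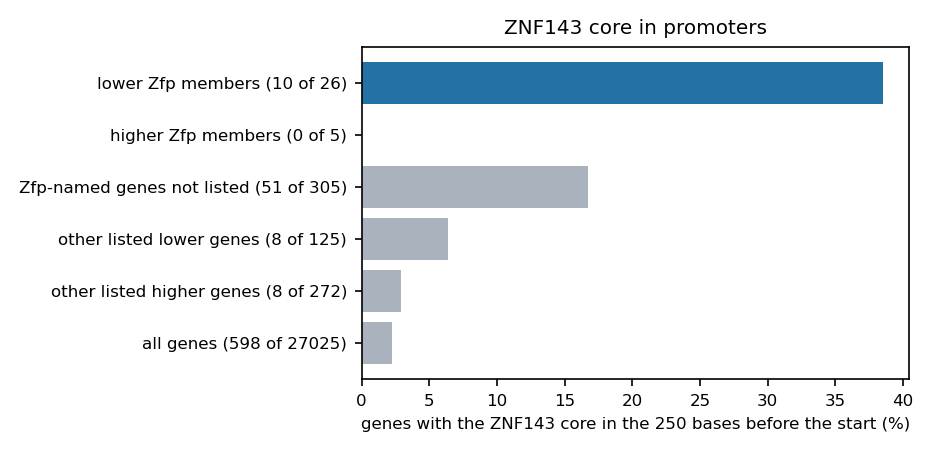
Share of genes, in percent, with the ZNF143 core in the 250 bases before the RefSeq start, for 6 sets of genes with the number with the core and the number searched beside each name. The bar of the lower Zfp members reaches 38.5%, that of the Zfp genes that were not listed 16.7% and that of all genes 2.21%.

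Other motifs are given for comparison. The cyclic AMP response element TGACGTCA was found in 1 of the 26, Zfp72, and in 27 of 272 other higher genes of the authors' deposited table (9.93%), against 1.77% of all genes. Its first bases, TGACGT, were found in Zfp72 and Zfp712 among the lower members (7.69% of the 26) and in Zfp655 among the higher ones. They were found in 7.29% of all genes and 10.5% of the Zfp genes outside the table. Among the other genes of the authors' deposited table they were in 4.8% of those lower and 27.6% of those higher. The GC box GGGCGG was in 10 of the 26 lower members (38.5%), 4 of the 5 higher members and 41.6% of the Zfp genes outside the table. It was in 70.4% of the other lower genes and 70.2% of the other higher genes of the authors' deposited table, and in 35.4% of all genes. The GC content of the 250 bases had a median of 56.7% in the lower members, 63.2% in the higher members and 62.0% in the other lower genes. The median was 61.9% in the other higher genes, 54.0% in the Zfp genes outside the table and 52.4% in all genes.

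Transcripts of the lower members were less rich in GC than those of the other lower genes. Their median GC content was 45.2%, against 53.4% in 170 other lower genes and 48.4% in 340 other higher genes of the authors' deposited table. The median transcript lengths were 4324 bases in the lower members, 4138 in the other lower genes and 3012 in the other higher genes. Over all 21877 protein-coding genes the medians were 49.3% GC and 2539 bases. The GC content of Zfp transcripts outside the table was not compared, so the value is not read as particular to the lower members.

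Zfp genes are often near-copies of each other, and the sources used here do not state whether the counting used strand. Of the 37 members, 19 shared no stretch of 50 bases with a transcript of another gene, and 13 shared more than 1% of their stretches. The values of Zfp780b (27.5% shared, most with Zfp974) and Zfp455 (10.3%, most with Zfp456) are therefore uncertain, and those of Zfp87 (9.59%) and Zfp65 (7.37%) to a smaller degree. Exons of 10 members overlap another gene, 9 of them on the opposite strand. Reads within the overlap cannot be told apart on the same strand, nor on the opposite strand if the counting ignored strand. The 10 include Zfp668 and Zfp646, which overlap each other by 608 bases, and Zfp507, by 1750 bases with Gm26790. Both CCCH members are also among the 10, Zfp36l1 by 1490 bases with Gm26669 and Zfp36 by 125 bases with Gm44710.

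Markers of some cell types also stood in the authors' deposited table, which holds 2.25% of all genes tested. The marker lists were drawn up with earlier results of these data known, so nothing is read from their shares beside the 2.25%. Among granule neuron markers 2 of 5 were lower, Lct (2.92-fold) and Dsp (2.83-fold). The summed level of these 2 was 5175 normalised reads in sham and 1801 in ischemia in the authors' deposited table. That sum holds called genes alone and leaves out Prox1, C1ql2 and Trpc6, so it is not a level of the cell type. Higher markers were Fcrls (1.47-fold) and Ly86 (1.53-fold), 2 of 5 for microglia, and S100a8 (6.78-fold) and S100a9 (12.9-fold), 2 of 5 for blood leukocytes, in the authors' deposited table. Lower were Gpr17 (1.42-fold), 1 of 3 for oligodendrocyte precursors, and Sox18 (2.16-fold), 1 of 5 for endothelium, in the authors' deposited table. None of the pyramidal neuron, interneuron, astrocyte or choroid plexus markers was in the authors' deposited table. The part of these cell types in the Zfp values was not tested, and the levels of markers that were not called were not analysed here.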

How the data were processed

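RNA of 6 hippocampus samples was sequenced, 3 after MCAO and 3 after sham operation, per the labels. The file the authors deposited lists called genes. Its columns of read signal hold group means of normalised read counts, its log2 fold change is the ratio of those means without a pseudocount, and its p-value and adjusted p-value are the authors' own, per the file headers and the values. Bowtie 0.12.2 and the build mm8 are named in the submitters' processing notes, with no role, and the sources used here do not state the counting, the normalisation or the test. Gene identifiers carry an Ensembl BALB/cJ prefix. It has 0 columns with values of single samples, so the planned limma fit was not run and the authors' values are described without a new test.

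The number of genes tested, 28319, was inferred from the Benjamini-Hochberg relation of the p-values and matched 636 of 637 adjusted p-values. Group means up to 1000 normalised reads were separated into whole reads of 3 libraries by lattice reduction (sympy 1.14.0), since each library's reads enter the mean in fixed steps. One solution was found for 140 of 276 ischemia means and 195 of 326 sham means. On 4 simulated tables of 637 genes for this comparison, 2 of them with size factors near those recovered, 385 of 385 means with 1 solution were split correctly, but 1 table gave more than 1 set of steps. The simulated means were separated only up to a limit well under 1000 normalised reads. Single solutions of higher means, such as the sham mean of Zfp661 (452), were therefore not checked. Libraries are lettered by size factor (0.837, 0.878 and 1.2 in ischemia, 0.874, 1.11 and 1.2 in sham) and could not be linked to the labels' replicate numbers. Total depth per library is unknown.

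Finger motifs were counted in the longest coding sequence of each gene in GENCODE M21, and a KRAB pattern in any of its protein-coding transcripts. That pattern was widened after the members' values and sequences had been seen: a narrower one in the longest coding sequence alone gave fewer members. Promoters are RefSeq's, GRCm38.p6. Python 3.11.15, numpy 2.4.6 and pandas 2.3.3 were used.

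The members and gene lists were chosen with earlier results of these data known. The limit of 1000 normalised reads, the motif for ZNF143, the AU-rich windows and the distance of 25 genes were chosen after the data were seen. Every member is named with its fold. Full values are given for the CCCH members, the higher C2H2 members, the 8 lower members with the largest fold, the 3 most abundant and the 3 with the largest adjusted p, with up to 6 genes of each list. The oligodendrocyte marker list is not reported here. Alternatives were a stricter threshold, a minimum fold, a minimum level, a pseudocount of 1, Bonferroni adjustment, leaving out the CCCH genes and leaving out each library.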

Additional observations from a re-analysis of the deposited data

How the results depend on the processing

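Of the 32 lower and 5 higher members, 12 and 3 remained at an adjusted p of at most 0.01, 8 and 3 with a 2-fold change or more, and 2 and 1 with Bonferroni adjustment (Zfp128, Zfp84 and Zfp36). Without the CCCH genes the higher members were 3. Of the members with at most 1% of their 50-base stretches shared with another gene, an alternative chosen after seeing the data, 21 were lower. The median log2 fold change of the lower members was -0.74 over all and -1.09 over those changed 2-fold or more. That of the higher members was 1.2 over all, 0.68 at an adjusted p of at most 0.01, 0.68 without the CCCH genes and 2.26 with Bonferroni adjustment. These changes follow from fewer genes being kept. The CCCH members' median lay 2.44 log2 units above that of the C2H2 members, and 2.43 with a pseudocount of 1. Leaving out each library in turn gave 102 values over the 17 separated members, whose groups do not overlap, so their sign could not change and says nothing about stability. In size, 1 of the 102, of Zfp36l1 (0.91 to 1.66), moved by more than the spread of 0.33. No paired analysis was possible because the table holds group means, and the separated libraries carry no replicate number. The reads behind a value set its precision, and 20 members could not be separated into libraries in both groups.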
